A study of Homo sapiens with 24 samples.

Results

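SFPQ, its relatives NONO and PSPC1, the long noncoding RNA NEAT1 and the nuclear matrix protein gene MATR3 were followed across 6 human liver cancer cell lines in which SFPQ had been knocked down. These 5 genes were taken by name, as 5 of the 23284 rows of the expression table, to describe how far SFPQ fell, whether its relatives changed with it, and how the RNA scaffold and MATR3 behaved. All 5 rows were found. RNA sequencing of polyadenylated RNA was done in HLE, SK-HEP1, Hep3b, Huh7, HepG2 and Huh1, all labelled as hepatocellular carcinoma (HCC) and grown in DMEM with 10% FBS. Each line gave 4 libraries. They were siSFPQ cells given TGF-beta at 2 ng/ml for 24 hours, siCTL cells given the same TGF-beta, siSFPQ cells without TGF-beta and siCTL cells without TGF-beta, where siCTL is the control siRNA. The labels give siSFPQ cells the genotype SFPQ KD and siCTL cells wt. They give 1 siRNA label for SFPQ, with no siRNA sequence, rescue or time between transfection and harvest. Each of the 4 groups thus holds 6 libraries, 1 per line, and the lines serve as replicates, so that every p-value measures the spread between lines.

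SFPQ, NONO and PSPC1 form the DBHS family (Drosophila behaviour human splicing), nuclear proteins that bind RNA and DNA and pair with one another as homodimers and heterodimers. They take part in transcription, splicing and DNA repair, and they coat NEAT1, the RNA around which the nuclear bodies called paraspeckles are built. NEAT1 is made as a short polyadenylated form and as a long form, and the long form, whose end carries no poly(A) tail, is the one that scaffolds the paraspeckle. SFPQ and NONO are needed for paraspeckles to form and stabilise the long form, while PSPC1 is dispensable for them. MATR3 (matrin 3) is an RNA-binding protein of the nuclear matrix that occurs in complexes with SFPQ and NONO.

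Levels are given as FPKM, a fragment count divided by transcript length and library size, so that genes can be compared per length. Depth was estimated at between 6100000 and 29900000 fragments per library, from the values of low genes. The labelled cell type was compared with its markers. Summed over 7 hepatocyte markers, the 4 libraries of a line reached 8279 to 12232 FPKM in HepG2, 4430 to 5677 FPKM in Huh7 and 655 to 1096 FPKM in Huh1. The sums were only 24.5 to 108 FPKM in HLE, 11.7 to 13.9 FPKM in SK-HEP1 and 4.25 to 9.34 FPKM in the libraries labelled Hep3b. ALB, TTR, APOB and HNF4A were each under 1 FPKM in all 4 libraries labelled Hep3b, as were TTR and HNF4A in HLE and ALB, TTR and HNF4A in SK-HEP1. Of 5 endothelial markers, each was under 1 FPKM in every library of all 6 lines. The sums of 5 stellate cell and fibroblast markers were 62.9 to 84.2 FPKM in Huh1, 43.8 to 64.9 FPKM in Hep3b and 24.7 to 45.7 FPKM in HepG2. They were 22.3 to 115 FPKM in SK-HEP1, 2.03 to 102 FPKM in Huh7 and 18.4 to 56.7 FPKM in HLE. Those of 5 immune markers were 39.2 to 90.3 FPKM in HLE and 54.1 to 65.6 FPKM in Huh1, and at most 36.7 FPKM in the other 4 lines, with PTPRC and CD3E under 1 FPKM in all 24 libraries. The part of these markers in the results was not tested. The libraries labelled Hep3b and HLE carry some results below, which are therefore also given without them. In bulk RNA, fewer cells with a transcript and less of it per cell cannot be told apart.

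SFPQ, encoded on chromosome 1, fell in siSFPQ cells of all 6 lines, whether or not TGF-beta was present. With TGF-beta its level was 26.5 FPKM at the lowest, 37.7 FPKM at the median and 54.6 FPKM at the highest in siSFPQ cells, against 84.7, 168 and 248 FPKM in siCTL cells. Without TGF-beta the lowest, median and highest levels were 23.5, 38.5 and 51.4 FPKM in siSFPQ cells, against 90.4, 176 and 247 FPKM in siCTL cells. The highest siSFPQ library lay below the lowest siCTL library in both settings, so the groups did not overlap. The log2 change of FPKM + 1 was -1.97 (SE 0.25, adjusted p = 0.00242, limma) with TGF-beta and -2.10 (SE 0.26, adjusted p = 0.00288) without it. Leaving out the libraries labelled Hep3b gave -1.95 (adjusted p = 0.00670) with TGF-beta and -2.11 (adjusted p = 0.00803) without it. Leaving out HLE gave -1.73 (adjusted p = 0.00336) with TGF-beta and -1.85 (adjusted p = 0.00895) without it. Among all genes tested, 30.3% were called with TGF-beta (8.47% higher and 21.8% lower) and 21.7% without it (6.69% higher and 15.0% lower), at an adjusted p under 0.05. A scaling of each library to a common median turned 1018 higher calls of 3639 with TGF-beta into 1579 of 3293, and 804 of 2608 without it into 1171 of 2541.

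The depth of the knockdown differed widely between lines. HLE kept 10.7% of its siCTL level of SFPQ with TGF-beta and 9.49% without it, and SK-HEP1 kept 16.4% and 13.1%. The libraries labelled Hep3b kept 22.9% with TGF-beta and 24.2% without it, and Huh7 kept 30.6% and 26.0%. HepG2 kept 43.8% with TGF-beta and 45.2% without it, and Huh1 kept 44.8% and 40.4%. Lines thus fell in the same groups of deep and shallow knockdown in both settings, HLE and SK-HEP1 deepest, HepG2 and Huh1 shallowest. The line with the most SFPQ to begin with was also HLE, at a mean of 248 FPKM over its pair of siCTL libraries, and Huh1 had the least, at 87.5 FPKM. What was left in siSFPQ cells spanned a narrower range than the starting level, 2.19-fold between the highest and the lowest line without TGF-beta, against 2.74-fold in siCTL cells, and 2.06-fold against 2.93-fold with TGF-beta. Even after knockdown SFPQ stayed well expressed: its median siSFPQ library without TGF-beta placed it above 89.3% of the 21660 rows kept, against 97.9% in siCTL cells.

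**Figure D1:**
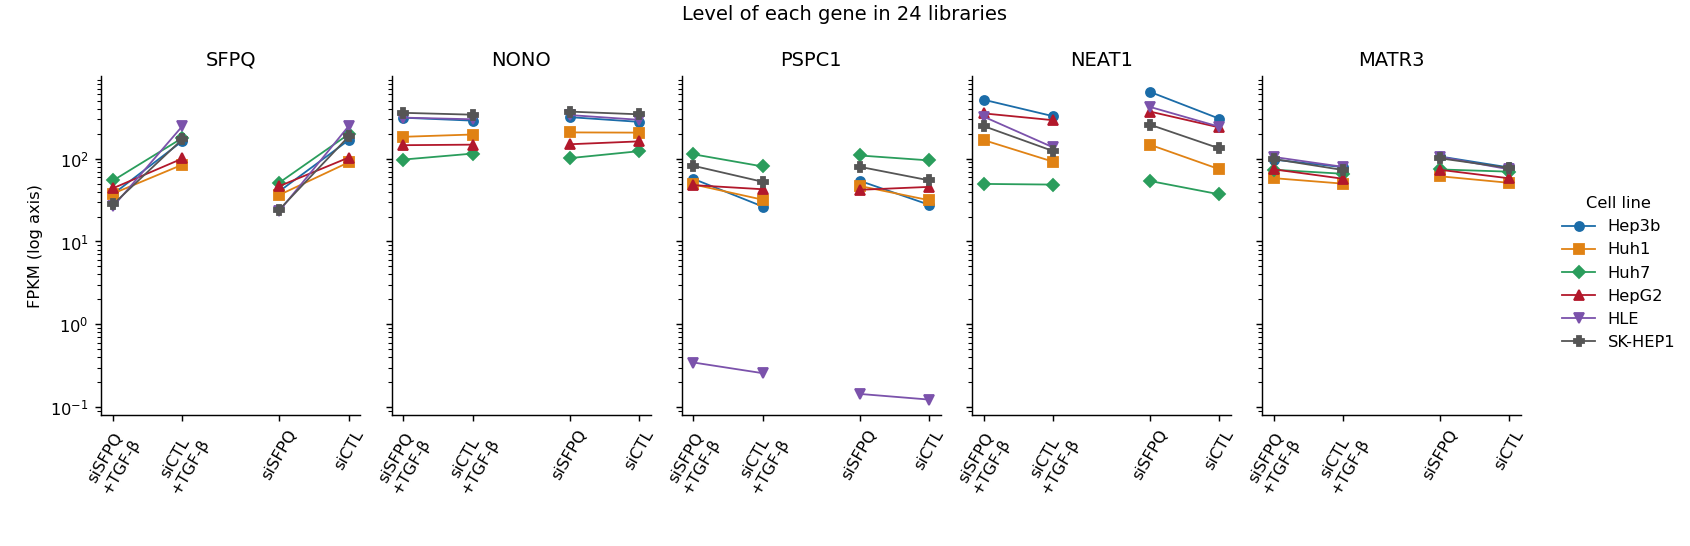
Level of the 5 genes in FPKM (log axis) in every library; lines join the siSFPQ and siCTL libraries of 1 cell line, with TGF-beta on the left of each panel and without it on the right. SFPQ lies lower in all siSFPQ libraries, NONO is nearly level, NEAT1 and MATR3 lie higher, and PSPC1 in HLE lies under 1 FPKM in all 4 libraries.

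The DBHS partners behaved differently from each other. NONO, the usual dimer partner of SFPQ, encoded on the X chromosome, was among the most abundant transcripts, and no change of it with SFPQ knockdown passed the test. With TGF-beta its lowest, median and highest levels were 97.6, 248 and 358 FPKM in siSFPQ cells, against 115, 242 and 340 FPKM in siCTL cells. Without TGF-beta they were 101, 262 and 370 FPKM in siSFPQ cells, against 123, 242 and 343 FPKM in siCTL cells. The groups overlapped almost completely. The log2 change was -0.02 (SE 0.07, 95% interval -0.16 to 0.13, adjusted p = 0.875) with TGF-beta and 0.02 (SE 0.09, 95% interval -0.17 to 0.21, adjusted p = 0.901) without it. With a common median scaling the value with TGF-beta became 0.10 (adjusted p = 0.357), so its sign is not fixed. Without the libraries labelled Hep3b it was -0.04 with TGF-beta and -0.02 without it. NONO was higher in siSFPQ cells of 3 of 6 lines with TGF-beta and of 4 of 6 without it. In Huh7, the line with the least NONO, the siSFPQ library held 84.7% of the siCTL level with TGF-beta and 82.4% without it, the largest fall in either setting.

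PSPC1, encoded on chromosome 13 and lowest of the 3 relatives by its median in siCTL cells, rose in siSFPQ cells with TGF-beta. Its lowest, median and highest levels with TGF-beta were 0.346, 52.9 and 113 FPKM in siSFPQ cells, against 0.257, 37.3 and 80.5 FPKM in siCTL cells. Without TGF-beta they were 0.144, 50.4 and 109 FPKM in siSFPQ cells, against 0.123, 38.6 and 95.4 FPKM in siCTL cells. The groups overlapped because the lines differ widely, and the change was read within lines. It was 0.51 on the log2 scale (SE 0.13, adjusted p = 0.0173) with TGF-beta, higher in 6 of 6 lines, and 0.35 (SE 0.13, adjusted p = 0.0831) without TGF-beta, higher in 5 of 6 lines. HLE counts as higher in both settings, on an estimated 9.37 fragments in siSFPQ cells against 11.7 in siCTL cells with TGF-beta. Without TGF-beta the estimates were 4.87 against 5.30 fragments, so the direction of HLE is not fixed. The libraries labelled Hep3b moved most, with 57.0 FPKM in siSFPQ cells against 26.5 FPKM in siCTL cells with TGF-beta, and 54.0 against 27.8 FPKM without it. HepG2 moved least among the lines that express the gene, with 47.9 FPKM in siSFPQ cells against 42.7 FPKM in siCTL cells with TGF-beta, and 42.1 against 45.6 FPKM without it.

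With any 1 line left out, the PSPC1 change with TGF-beta stayed past the threshold (0.39 to 0.59, adjusted p between 0.0137 and 0.0484). Without the libraries labelled Hep3b the change was 0.39 (adjusted p = 0.0342) with TGF-beta and 0.24 (adjusted p = 0.206) without it. Without HLE it was 0.59 (adjusted p = 0.0137) with TGF-beta and 0.42 (adjusted p = 0.0812) without it. Without HepG2 the value without TGF-beta was 0.45 (adjusted p = 0.0473), past the threshold. The difference between the settings itself was 0.15 (SE 0.06, unadjusted p = 0.0240, adjusted p = 0.331), positive in 6 of 6 lines, and did not pass in a test that called 0.252% of genes (0.222% higher and 0.0296% lower). HLE is again among the 6 lines on few fragments.

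The promoters of NONO and PSPC1 are shown because PSPC1 passed the test for SFPQ knockdown with TGF-beta and NONO passed it in neither setting. They come from RefSeq on GRCh38.p14, run from 250 bases before to 50 bases after a start site, and are chrX:71283385-71283684 on the plus strand for NONO and chr13:19782896-19783195 on the minus strand for PSPC1. Capitals mark a YY1-like motif (AANATGGCG, either strand).
NONO: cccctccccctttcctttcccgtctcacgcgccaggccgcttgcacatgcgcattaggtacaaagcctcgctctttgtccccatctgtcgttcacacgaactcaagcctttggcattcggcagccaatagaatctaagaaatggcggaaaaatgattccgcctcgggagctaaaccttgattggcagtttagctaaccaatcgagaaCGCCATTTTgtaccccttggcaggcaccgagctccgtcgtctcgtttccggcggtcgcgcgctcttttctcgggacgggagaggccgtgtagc
PSPC1: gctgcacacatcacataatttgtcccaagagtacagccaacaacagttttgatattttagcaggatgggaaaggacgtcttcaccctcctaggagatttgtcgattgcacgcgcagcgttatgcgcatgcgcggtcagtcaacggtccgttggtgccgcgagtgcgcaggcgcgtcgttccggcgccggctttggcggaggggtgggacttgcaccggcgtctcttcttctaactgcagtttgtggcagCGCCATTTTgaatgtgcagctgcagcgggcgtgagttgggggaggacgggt
The motif occurred 1 time in each, its first base 43 bases upstream of the start in NONO and 1 base upstream in PSPC1. It occurred 0 times in the 2 promoters that RefSeq lists for MATR3 (chr5:139273851-139274150 and chr5:139293490-139293789, both on the plus strand). Of 35116 promoters of the same length, 3.19% held it. It was 1 of 4 motifs looked for. CCAAT occurred 3 times in NONO and 0 times in PSPC1, and 34.6% of all promoters held it. The GC box (GGGCGG) and TATAAA occurred 0 times in both. The YY1-like motif was chosen after these sequences had been read, and a match is a description of the letters only. SFPQ and NEAT1 had no entry.

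Taken per length, the 3 DBHS transcripts can be summed. The sum of SFPQ, NONO and PSPC1 was lower in siSFPQ cells of all 6 lines. With TGF-beta the lowest, median and highest sums were 237, 305 and 468 FPKM in siSFPQ cells, against 291, 426 and 564 FPKM in siCTL cells. Without TGF-beta they were 238, 325 and 474 FPKM in siSFPQ cells, against 310, 445 and 584 FPKM in siCTL cells. The groups overlapped across lines, and within lines the log2 ratio averaged -0.36 (SD 0.19) with TGF-beta and -0.39 (SD 0.20) without it. An exact test that flips the sign of each line's ratio (two-sided, 64 arrangements) gave an adjusted p of 0.0375 for each, adjusted over 6 such tests. Its smallest possible unadjusted p is 0.0312. The sum includes SFPQ, the siRNA target, so its fall largely restates the knockdown.

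The sum of NONO and PSPC1 alone rose by 0.10 on the log2 scale with TGF-beta (SD 0.08, higher in 6 of 6 lines, exact sign-flip adjusted p = 0.0375). Without TGF-beta it differed by 0.10 (SD 0.15, higher in 4 of 6 lines, exact p = 0.188). Scaled to a common library median, the values were 0.22 (exact adjusted p = 0.0375) with TGF-beta and 0.18 (exact adjusted p = 0.0938) without it. In the libraries labelled Hep3b the sum with TGF-beta was 369 FPKM in siSFPQ cells against 314 FPKM in siCTL cells, while SFPQ itself stood at 37.5 FPKM against 163 FPKM. In HLE, where PSPC1 is nearly silent, it was 313 FPKM against 299 FPKM, beside 26.5 FPKM of SFPQ against 248 FPKM. The rise of the relatives was thus smaller than the loss of SFPQ in every line. With any 1 line left out, the exact test over 5 lines cannot give a p under 0.0625, and the mean ratio ranged from 0.08 to 0.12 with TGF-beta. The exact tests adjusted together include those of the DBHS sum and the SFPQ share, which contain the siRNA target. The adjusted p of 0.0375 for the NONO plus PSPC1 sum is therefore lenient.

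The make-up of the pool shifted accordingly. SFPQ made up 12.7% of the 3 transcripts in siSFPQ cells with TGF-beta (SD 5.98, n = 6), against 36.6% in siCTL cells (SD 8.19, n = 6), a difference of -23.9 percentage points (exact sign-flip adjusted p = 0.0375). Without TGF-beta the shares were 12.2% (SD 6.29, n = 6) in siSFPQ cells and 36.8% (SD 7.98, n = 6) in siCTL cells, a difference of -24.6 points (exact sign-flip adjusted p = 0.0375). SFPQ is the siRNA target, so a fall of its share follows from the knockdown, and these tests give no support of their own. The lowest and highest shares were 6.02% and 20.6% in siSFPQ cells with TGF-beta and 27.1% and 47.6% in siCTL cells, which do not overlap. NONO was the main DBHS transcript of siSFPQ cells in 5 lines, from 61.3% of the pool in HepG2 to 92.1% in HLE with TGF-beta. Huh7 was the exception, with PSPC1 at 42.6% and NONO at 36.8% in siSFPQ cells with TGF-beta, against 21.5% and 30.8% in siCTL cells, where SFPQ led with 47.6%.

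**Figure D2:**
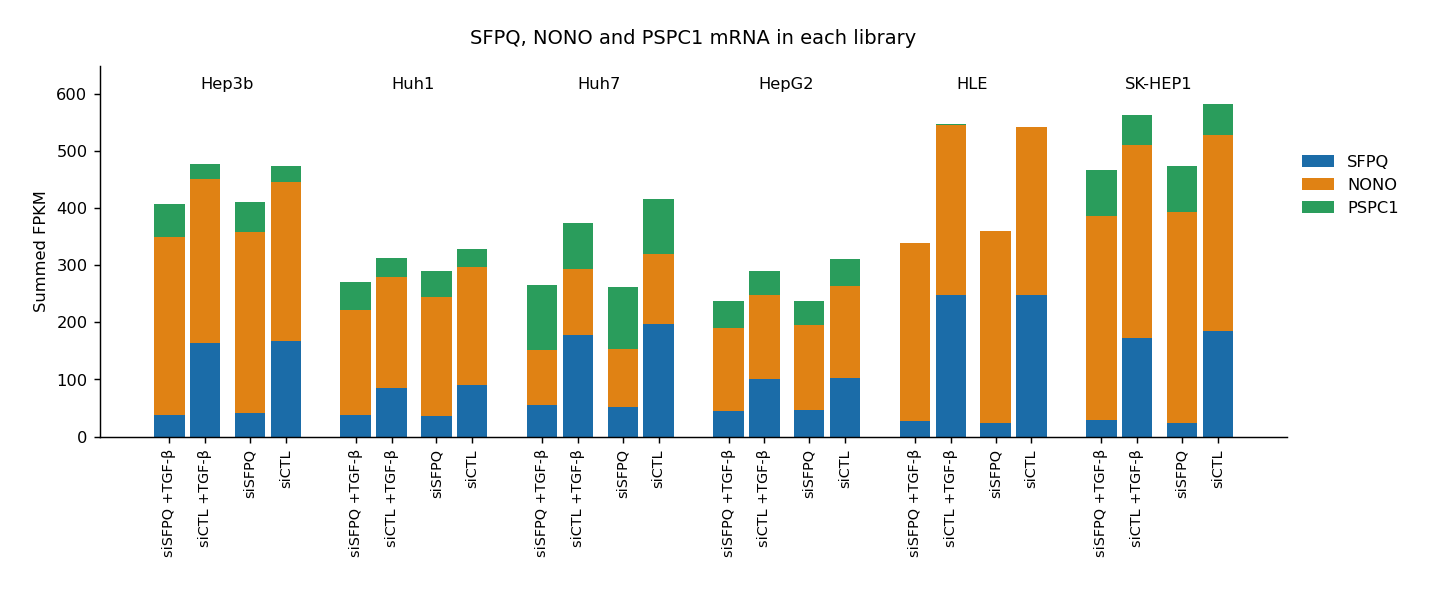
Summed FPKM of SFPQ, NONO and PSPC1 in each of the 24 libraries, with the 4 groups of a line side by side and the stacked parts standing for the 3 genes. The SFPQ part shrinks in every siSFPQ library, NONO makes up most of what is left in all lines but Huh7, and HLE has almost no PSPC1.

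NEAT1, the paraspeckle scaffold, encoded on chromosome 11, rose in siSFPQ cells of all 6 lines in both settings. With TGF-beta its lowest, median and highest levels were 49.6, 285 and 515 FPKM in siSFPQ cells, against 48.7, 131 and 326 FPKM in siCTL cells. Without TGF-beta they were 53.8, 314 and 641 FPKM in siSFPQ cells, against 37.2, 186 and 304 FPKM in siCTL cells. Huh7 was lowest and Hep3b highest in every group, so the groups overlapped across lines while each siSFPQ library lay above its own siCTL library. The log2 change was 0.67 (SE 0.15, adjusted p = 0.0113) with TGF-beta and 0.82 (SE 0.09, adjusted p = 0.00234) without it. With all genes tested ordered from the largest fall to the largest rise, NEAT1 lay above 99.5% of them without TGF-beta and above 98.2% with it. Leaving out the libraries labelled Hep3b gave 0.67 (adjusted p = 0.0238) with TGF-beta and 0.77 (adjusted p = 0.00764) without it. Leaving out HLE gave 0.56 (adjusted p = 0.0224) with TGF-beta and 0.83 (adjusted p = 0.00902) without it.

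The NEAT1 change of single lines ran from 0.03 to 1.22 on the log2 scale with TGF-beta and from 0.52 to 1.07 without it. In HLE it was 2.34-fold with TGF-beta (322 FPKM in siSFPQ cells, against 137 FPKM in siCTL cells) and 1.73-fold without it. SK-HEP1 showed 2.00-fold with TGF-beta and 1.93-fold without it, and Huh1 1.82-fold and 1.97-fold. The libraries labelled Hep3b showed 1.58-fold with TGF-beta and 2.11-fold without it, and HepG2 1.21-fold and 1.55-fold. Huh7 moved least, 1.02-fold with TGF-beta (49.6 FPKM in siSFPQ cells, against 48.7 FPKM in siCTL cells) and 1.45-fold without it (53.8 FPKM against 37.2 FPKM). HLE and SK-HEP1, which had lost the most SFPQ, had the largest NEAT1 rises with TGF-beta, but Huh1, with a shallow knockdown, was close behind. Without TGF-beta the order was another, with Hep3b and Huh1 first. The difference between settings was -0.15 (SE 0.11, adjusted p = 0.595), negative in 4 of 6 lines. It was -0.27 without HLE (unadjusted p = 0.0101, adjusted p = 0.395) and -0.08 without Huh7 (adjusted p = 0.742).

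FPKM of NEAT1 does not separate its forms. Of 8 NEAT1 transcripts in the GENCODE annotation, 1 spans 22743 bases and the next longest 3684 bases, and reads in the shared 5′ stretch count for both. Selection of polyadenylated RNA also favours the short form. MALAT1, a nuclear noncoding RNA from the neighbouring gene on chromosome 11, showed a similar size of change, at lower FPKM than NEAT1 in every line. It rose by 0.64 (SE 0.15, adjusted p = 0.0154) with TGF-beta, higher in 5 of 6 lines, and by 0.81 (SE 0.15, adjusted p = 0.00767) without it, higher in 6 of 6. Its median level was 26.7 FPKM in siSFPQ cells, against 17.6 FPKM in siCTL cells with TGF-beta, and 38.7 FPKM against 18.6 FPKM without it. The line with the largest MALAT1 change without TGF-beta was HLE, at 2.87-fold, and with TGF-beta SK-HEP1, at 2.51-fold.

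MATR3, encoded on chromosome 5, rose by a small amount in all 6 lines. Its lowest, median and highest levels with TGF-beta were 58.2, 85.9 and 105 FPKM in siSFPQ cells, against 49.9, 69.3 and 79.7 FPKM in siCTL cells. Without TGF-beta they were 61.3, 87.6 and 106 FPKM in siSFPQ cells, against 51.1, 72.0 and 78.3 FPKM in siCTL cells. The ranges overlapped, with 3 lines near 100 FPKM in siSFPQ cells (Hep3b, HLE and SK-HEP1). The log2 change was 0.31 (SE 0.07, adjusted p = 0.0109) with TGF-beta and 0.33 (SE 0.08, adjusted p = 0.0204) without it. Huh7 moved least in both settings, 1.12-fold with TGF-beta and 1.06-fold without it, SK-HEP1 moved most with TGF-beta, 1.36-fold, and HLE without it, 1.42-fold. The call without TGF-beta was lost without Hep3b (0.31, adjusted p = 0.0541), HLE (0.30, adjusted p = 0.0560) or SK-HEP1 (0.32, adjusted p = 0.0525). The call with TGF-beta held without Hep3b (0.32, adjusted p = 0.0265) and without HLE (0.30, adjusted p = 0.0271). SNHG4, a noncoding gene whose span overlaps 11 of the 39 annotated MATR3 transcripts, had changes of 0.21 (adjusted p = 0.110) with TGF-beta and 0.13 (adjusted p = 0.397) without it. Whether reads were counted by strand is not stated in the labels.

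**Figure D3:**
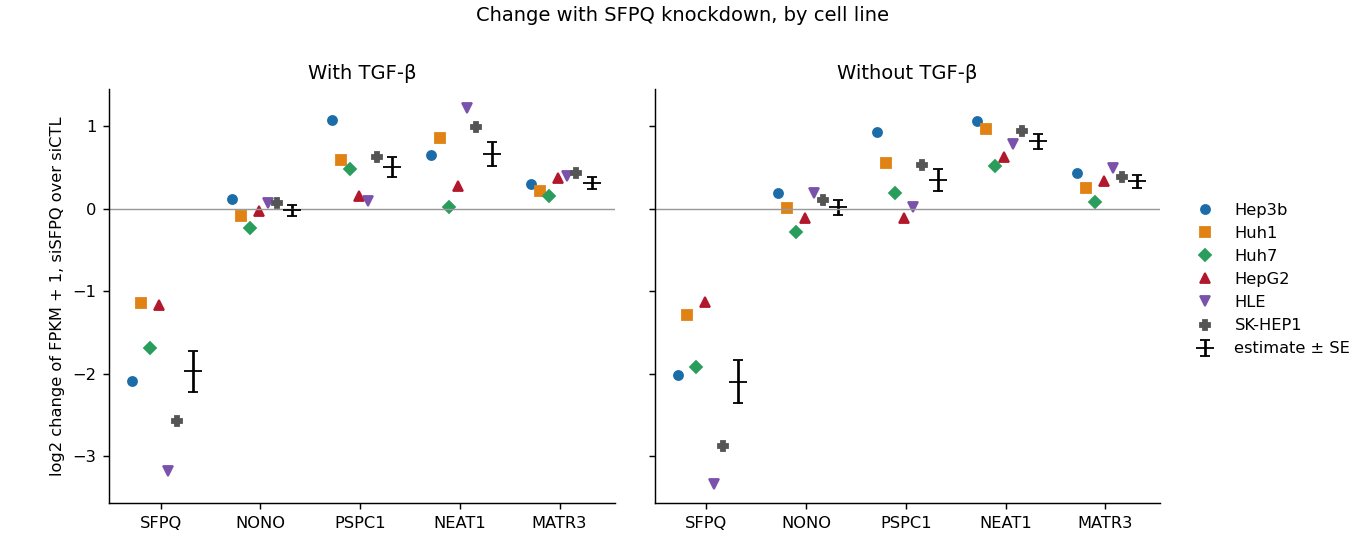
Log2 change of FPKM + 1, siSFPQ over siCTL, for the 5 genes in each cell line (points) with the limma estimate and its SE (bar), with TGF-beta on the left and without it on the right. SFPQ is below 0 in 6 of 6 lines, NEAT1 and MATR3 are above 0 in 6 of 6 lines in both panels, and NONO is spread around 0.

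TGF-beta itself changed none of the 5 transcripts past the threshold. In siSFPQ cells 5.13% of genes were called (2.25% higher and 2.88% lower), and in siCTL cells 0.0986% (0.0658% higher and 0.0329% lower). Scaling to a common median gave 294 higher of 395 calls in siSFPQ cells in place of 268 of 610. SFPQ had a change of 0.05 (95% interval -0.08 to 0.19, adjusted p = 0.584) in siSFPQ cells and -0.07 (95% interval -0.16 to 0.02, adjusted p = 0.409) in siCTL cells, where it was lower in 5 of 6 lines. NONO had -0.07 (95% interval -0.17 to 0.03, adjusted p = 0.293), lower in 6 of 6 lines, in siSFPQ cells and -0.04 (95% interval -0.13 to 0.05, adjusted p = 0.627) in siCTL cells. PSPC1 had 0.11 (95% interval -0.01 to 0.22, adjusted p = 0.212), higher in 6 of 6 lines, in siSFPQ cells and -0.05 (95% interval -0.17 to 0.08, adjusted p = 0.710) in siCTL cells. Of the 6 lines, the change of HLE in siSFPQ cells rests on an estimated 9.37 fragments with TGF-beta against 4.87 without it. In siCTL cells the PSPC1 value was -0.09 without HLE and -0.0080 without Huh7. For MATR3 the changes were -0.04 (adjusted p = 0.613) in siSFPQ cells and -0.02 (adjusted p = 0.869) in siCTL cells.

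NEAT1 was the most variable of the 5 under TGF-beta, with -0.13 (95% interval -0.30 to 0.04, adjusted p = 0.293) in siSFPQ cells and 0.02 (95% interval -0.30 to 0.35, adjusted p = 0.953) in siCTL cells. In siCTL cells the lines went opposite ways. HLE had 137 FPKM with TGF-beta, against 243 FPKM without it. Huh7 had 48.7 FPKM with TGF-beta against 37.2 FPKM without it, Huh1 92.1 against 74.8 FPKM, and HepG2 292 against 239 FPKM. The single siCTL library of HLE with TGF-beta thus enters both the largest fall with TGF-beta in siCTL cells and the largest NEAT1 rise with knockdown. In siSFPQ cells, where NEAT1 was lower with TGF-beta in 5 of 6 lines, HLE also fell most, with 322 FPKM against 422 FPKM without TGF-beta. Without HLE the TGF-beta change in siCTL cells was 0.19, and the knockdown change with TGF-beta was 0.56 (adjusted p = 0.0224). SNHG4 fell with TGF-beta in siSFPQ cells (-0.40, adjusted p = 0.0340), and in siCTL cells it had -0.48 (adjusted p = 0.215), with a negative sign in 6 of 6 lines each.

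**Figure D4:**
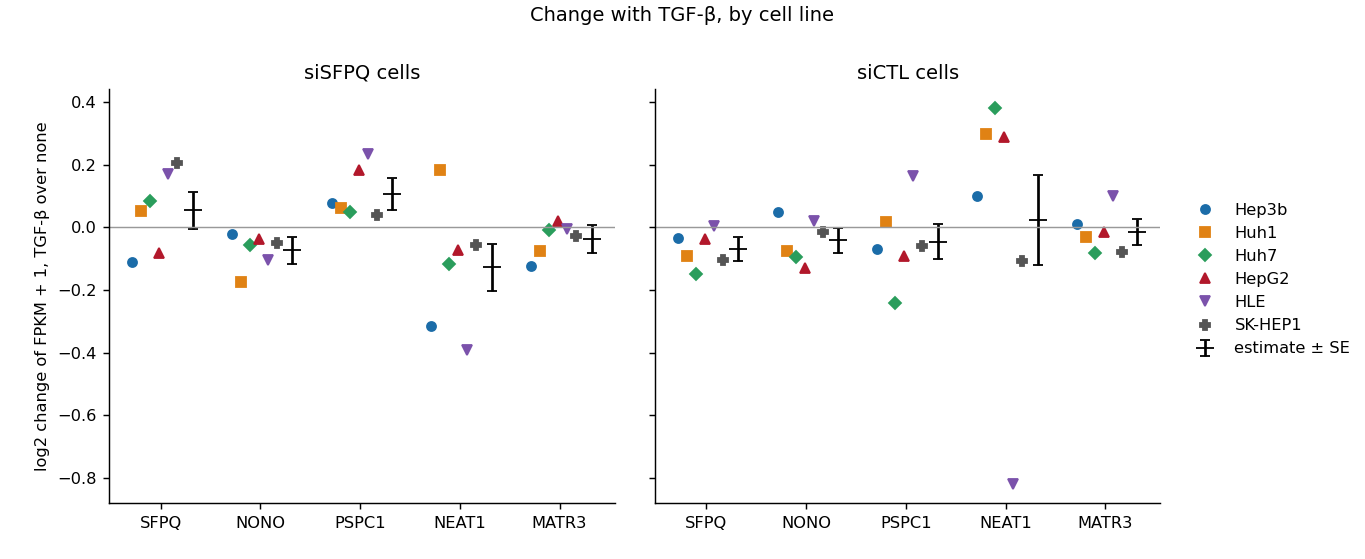
Log2 change of FPKM + 1 with TGF-beta over none for the 5 genes in each cell line (points) with the limma estimate and its SE (bar), siSFPQ cells on the left and siCTL cells on the right. The points of NEAT1 are spread most, with HLE siCTL cells at -0.82.

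Most of the variation of 4 of the 5 genes lay between cell lines and not between treatments. Of the total spread of log2(FPKM + 1) over 24 libraries, 98.2% lay between lines for NONO and for PSPC1, 85.3% for NEAT1 and 69.6% for MATR3, against 4.90% for SFPQ. The PSPC1 share includes HLE, whose mean of 0.218 FPKM lay far below the 39.8 FPKM of the next lowest line. It was not computed without HLE. By its mean over 4 libraries NONO was ordered SK-HEP1 (353 FPKM), HLE (311), Hep3b (299), Huh1 (198), HepG2 (151) and Huh7 (109). The ranges of neighbours in that order stood apart except for HLE and Hep3b. For NEAT1 the order was Hep3b (447 FPKM), HepG2 (313), HLE (281), SK-HEP1 (191), Huh1 (121) and Huh7 (47.3), and only Huh7 stood apart from its neighbour. PSPC1 was highest where NONO was lowest, in Huh7 (99.5 FPKM), followed by SK-HEP1 (67.3), HepG2 (44.6), Hep3b (41.3), Huh1 (39.8) and HLE (0.218). MATR3 ran from 91.1 FPKM in HLE to 55.1 FPKM in Huh1, and all neighbours overlapped.

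HLE nearly lacked PSPC1. It had 0.346 FPKM in siSFPQ cells and 0.257 FPKM in siCTL cells with TGF-beta, and 0.144 FPKM in siSFPQ cells and 0.123 FPKM in siCTL cells without it. These values stand for an estimated 4.87 to 11.7 fragments per library. The other 20 libraries held 26.5 to 113 FPKM. Among 1877 genes above 20 FPKM in every library of the other 5 lines, PSPC1 was the only 1 under 1 FPKM in all HLE libraries. The same count was between 0 and 5 for each of the other lines.

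The loss extended to neighbouring genes. Up to 18 protein-coding genes on each side of PSPC1 were looked at, fewer where the chromosome ends. Of these genes, 13 had a median of at least 1 FPKM in the other lines, and 7 of the 13 were under 1 FPKM in all 4 HLE libraries. They were MPHOSPH8, a chromatin silencing protein, the zinc finger genes ZMYM5 and ZMYM2, CRYL1, the ciliary transport gene IFT88, N6AMT2 and the nuclear transport receptor XPO4. Together with PSPC1 they followed each other without a gap among the expressed genes. Only MPHOSPH8 lay before PSPC1 in chromosome order, so no end of the run was seen on that side. ZMYM2 had a median of 0.0237 FPKM in HLE, against 7.89 FPKM in the other lines, and XPO4 0.0313 FPKM against 7.67 FPKM. N6AMT2 was listed at 0 in all HLE libraries. In their lowest library of the other lines, CRYL1 and N6AMT2 were also under 1 FPKM, at 0.306 and 0.840 FPKM. The share of all genes that meet the same limits was not computed. Right after XPO4, LATS2, a kinase of the Hippo pathway, had a median of 11.5 FPKM in HLE, against 13.9 FPKM in the other lines, and SAP18 37.1 FPKM against 31.1 FPKM. The cause was not tested.

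**Figure D5:**
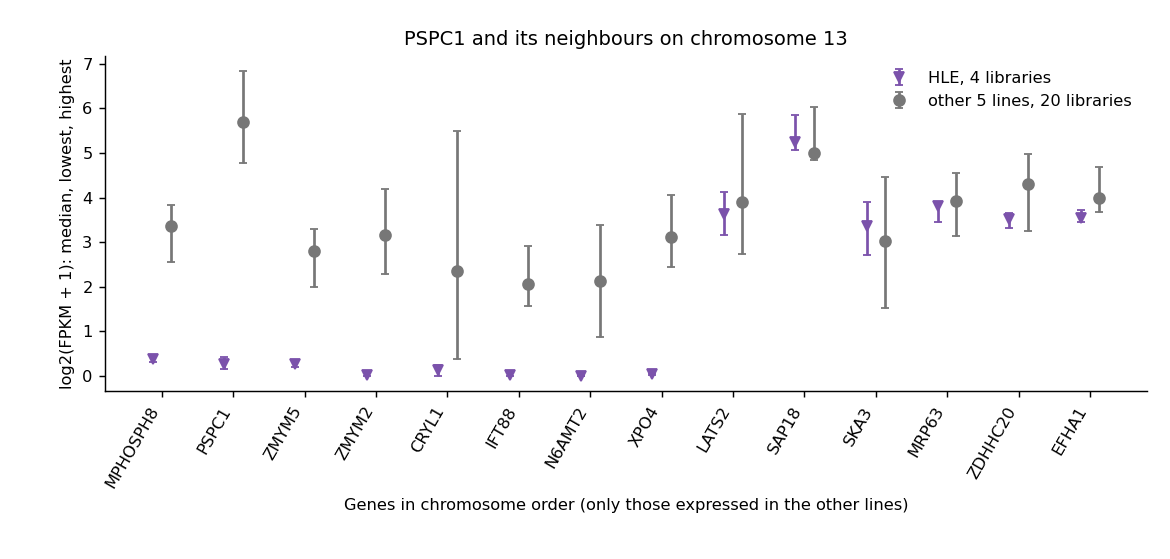
Median, lowest and highest log2(FPKM + 1) of PSPC1 and its expressed neighbours in chromosome order, in the 4 HLE libraries and in the 20 libraries of the other 5 lines. MPHOSPH8 to XPO4 lie near 0 in HLE, while LATS2 to EFHA1 have HLE medians between 9.27 and 37.1 FPKM.

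Genes that work with the 5 were described by lists. Of 33 other paraspeckle proteins 30 were tested. With TGF-beta 3 rose and 7 fell in siSFPQ cells, a share near the 30.3% of all genes, with a median change of -0.07 against -0.09 over all genes. Without TGF-beta 4 rose and 5 fell, beside 21.7% of all genes (6.69% higher and 15.0% lower), with a median of -0.04 against -0.07. HNRNPH3, a splicing regulator, rose by 0.57 (SE 0.07, adjusted p = 0.00258) with TGF-beta and by 0.65 (SE 0.09, adjusted p = 0.00381) without it. RBM7, of the nuclear exosome targeting complex, rose by 0.49 (adjusted p = 0.0118) and by 0.59 (adjusted p = 0.00596), and HNRNPA1 by 0.37 (adjusted p = 0.0102) and by 0.35 (adjusted p = 0.0417). Of the FET family, TAF15 had -0.99 (SE 0.19, adjusted p = 0.00763) with TGF-beta and -0.80 (SE 0.19, adjusted p = 0.0176) without it. EWSR1 had -0.72 (adjusted p = 0.0138) with TGF-beta and -0.67 (adjusted p = 0.0224) without it. HNRNPR fell as well, with -0.38 (adjusted p = 0.0105) and -0.33 (adjusted p = 0.0415). With TGF-beta treatment itself, 1 of the 30 was called, RBMXL1 in siSFPQ cells (-0.29, adjusted p = 0.0406), beside 5.13% of all genes in siSFPQ cells. RBMXL1 is a retrocopy of RBMX and HNRNPA1 has near-identical pseudogenes, so reads may have been split between copies and the values of these genes are uncertain.

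The choice between the forms of NEAT1 is known to depend on the cleavage factor subunits NUDT21 and CPSF6, which favour the short form, and on HNRNPK, which favours the long one. Of the 4 genes listed for this step, 1 was called in siSFPQ against siCTL cells given TGF-beta, beside the 30.3% of all genes. It was CPSF6, which fell with SFPQ knockdown (-0.26, SE 0.08, adjusted p = 0.0406). In the same comparison CPSF7 had -0.25 (adjusted p = 0.0576), NUDT21 -0.24 (adjusted p = 0.0823) and HNRNPK -0.09 (adjusted p = 0.289). Without TGF-beta 0 of 4 were called for SFPQ knockdown by limma at the adjusted threshold, beside 21.7% of all genes. An unadjusted p under 0.05 was seen for 2 of the 4 (CPSF6 with -0.21 and NUDT21 with -0.21), beside 4484 of all 12013 genes tested. Of 10 partners of MATR3 and nuclear matrix proteins, 1 was called with SFPQ knockdown in each setting, beside 30.3% of all genes with TGF-beta and 21.7% without it. SAFB fell in siSFPQ cells given TGF-beta (-0.31, adjusted p = 0.0266), and the helicase DDX5 rose in siSFPQ cells without it (0.26, adjusted p = 0.0352).

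After the mean of each line had been taken off, the genes whose levels followed a member most closely over the 24 libraries were found by Pearson's r, as a description. All 24 points share the same 6 lines and the same knockdown, so that the likeness largely restates who moved with siSFPQ. SFPQ was followed by RTN3 (r = 0.989), FTO (0.988) and FAF1 (0.987), each of them lower in siSFPQ cells. NEAT1 was followed by RBM7 (0.926), DCBLD2 (0.921) and CTSB (0.918), PSPC1 by PTPRJ (0.910) and UNK (0.873) among others, and MATR3 by RAC1 (0.976), ZW10 (0.968) and PRKRIR (0.966). For NONO the nearest were SSR1 (0.898), XRCC6 (0.878) and GLRX5 (0.871). Among the members, NEAT1 and MATR3 had r = 0.852, while NONO had between -0.18 and 0.30 with the other 4. Scaling each library to a common median moved NONO with MATR3 to 0.717 and with SFPQ to -0.709, so that the low values of NONO depend on the scaling.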

How the data were processed

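The authors deposited 1 table of expression values for 24 libraries, named as raw counts. The authors made it with TopHat2 2.1.1 and Cufflinks 2.2.1 on hg19, per the submitters' processing notes, and its fractional values were read as FPKM, the usual output of Cufflinks. Annotation and settings: not given in the sources used here. Columns of no sample, 2 in all, were empty and unused. Of 23284 rows, 1624 short RNA rows were dropped, since short length inflates their FPKM, and 21660 stayed.

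Groups came from the sample titles. Comparisons of a pair of groups were fitted on log2(FPKM + 1) in limma 3.58.1 (R 4.3.3), blocking on the cell line, with trended and robust eBayes. Genes with at least 1 FPKM in at least 6 of the compared libraries were tested and Benjamini-Hochberg adjusted together, and genes with an adjusted p under 0.05 were called. The scale understates changes of low genes. The interaction was fitted to all 24 libraries with terms for the line and for the siRNA and TGF-beta effect of each line. Residual degrees of freedom were 5 throughout. The fit was tested on simulated data. DBHS sums and shares were tested by exact sign flips in SciPy 1.17.1. Libraries are paired by the line that the labels name. After the group means were subtracted, libraries of a line correlated at 0.874 to 0.978, and the 180 pairs that differed in line and group at 0.410 or less. Separate cultures or batches are not named in the labels.

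The members and gene lists were chosen with earlier results of these data known. Named genes are the 5 members, MALAT1 and SNHG4 as neighbours, up to 4 genes with the smallest p of a list in a comparison, and for each member the 3 genes most like it; 1 gene that this rule takes is not reported here. The genes around PSPC1 were looked up after its level in HLE had been seen. Depth was estimated from low genes, taking fragments to be 180 bases long, is approximate and entered no test. Transcript lengths, gene order and chromosomes came from GENCODE and RefSeq tables of another build than the table, and none of their gene coordinates is printed. Alternatives were another pseudocount, no filter, other scalings, all rows, no block, plain eBayes, and lines left out.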

Additional observations from a re-analysis of the deposited data

Results flagged for a closer look

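The level of PSPC1 in HLE stood apart from the other 5 lines in each of the 4 groups. It was 0.346 FPKM in siSFPQ cells and 0.257 FPKM in siCTL cells with TGF-beta, and 0.144 FPKM in siSFPQ cells and 0.123 FPKM in siCTL cells without it. The gap to the nearest line took 0.809, 0.739, 0.794 and 0.729 of the range of the group, in that order of groups, above Dixon's limit for 6 samples. These were the only 4 of 40 sets of 6 values examined that passed this limit, which chance alone passes in about 1 of 20 sets. The 4 sets share the line, so they are not independent of each other.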

How the results depend on the processing

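The directions of SFPQ, NEAT1, MATR3 and PSPC1 with knockdown were the same under every alternative run. Of 504 recomputed values, 395 kept their direction and their side of the threshold or, for counts of calls, stayed close to the count reported.

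Without the replicate block, which ignores that libraries of a line are paired, no gene was called in any comparison (0 each), while the estimates stayed as they were: SFPQ -1.97 (adjusted p = 0.0690) with TGF-beta and -2.10 (adjusted p = 0.0656) without it, NEAT1 0.67 and 0.82, MATR3 0.31 and 0.33, and PSPC1 0.51 with TGF-beta. The unpaired exact permutation tests gave adjusted p = 0.697 for the NONO plus PSPC1 sum (0.10, with TGF-beta) and 0.211 for the DBHS sum (-0.36 with TGF-beta and -0.39 without it). The additive replicate block gave 0 interaction calls.

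Estimates near 0 changed sign. NONO with knockdown was 0.099 (median scaling), 0.015 (quantile normalization) and 0.042 (without Huh7 and HepG2) with TGF-beta and -0.0055 (quantile normalization) without it, and its interaction 0.018 (quantile normalization). MATR3 with median scaling was 0.022 and 0.013 for TGF-beta in siSFPQ and siCTL cells and 0.0083 for the interaction. Without Huh7 and HepG2, TGF-beta in siCTL cells gave PSPC1 0.013, NEAT1 -0.13 and MATR3 0.00013, and pseudocount 0.1 gave PSPC1 0.038.

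Counts of calls moved most for TGF-beta. With no filter they were 2416 (knockdown with TGF-beta), 1152 (without), 15 (TGF-beta in siSFPQ cells), 0 (in siCTL cells) and 4 (interaction). Without Huh7 and HepG2 they were 1657, 986, 67 and 4. TGF-beta in siSFPQ cells gave 316 (pseudocount 5), 395 (median scaling), 368 (quantile normalization) and 341 (all rows). TGF-beta in siCTL cells gave 1 each with pseudocount 5, quantile normalization, all rows and plain eBayes. The interaction gave 13 (pseudocount 0.1), 18 (all rows) and 15 (plain eBayes).

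With 1 line left out the counts ranged from 2379 to 2989, 1382 to 2205, 34 to 418, 0 to 17 and 8 to 28 in the same order. The members' changes with knockdown, with TGF-beta and without it, ranged from -2.14 to -1.73 and -2.29 to -1.85 (SFPQ), -0.042 to 0.029 and -0.017 to 0.076 (NONO), 0.39 to 0.59 and 0.24 to 0.45 (PSPC1), 0.56 to 0.80 and 0.77 to 0.88 (NEAT1), and 0.29 to 0.34 and 0.30 to 0.38 (MATR3). For TGF-beta in siCTL cells NEAT1 ranged from -0.048 to 0.19, and the MATR3 interaction from -0.040 to 0.0019. The NONO plus PSPC1 sum ranged from 0.078 to 0.12 and 0.059 to 0.14, the DBHS sum from -0.40 to -0.30 and -0.43 to -0.33, and the SFPQ share from -26.0 to -21.1 and -26.8 to -21.7 points. None of these sums and shares can pass with 5 lines, by construction. The causes of the other changes were not tested.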

Other observations

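MIR612, a microRNA gene that lies 21684 bases into NEAT1, inside the 1 annotated transcript that spans 22743 bases, had a row of its own in the table. It was above 0 in 13 of 24 libraries, 3 of 6 in siSFPQ cells and 4 of 6 in siCTL cells with TGF-beta, and 3 of 6 in each without it. Huh1 held the highest value of each group, with 269.6 FPKM in siSFPQ cells and 126 FPKM in siCTL cells with TGF-beta, and 122 FPKM in siSFPQ cells and 77.0 FPKM in siCTL cells without it. The row covers a short RNA, whose FPKM is inflated and rests on few fragments, so these values were not tested.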
